A study of Mus musculus with 12 samples.

Results

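The sequences described here are the early transposons (ETn) of the mouse and their relatives, taken as every repeat name that begins with ETn, RLTRETN or ERVB7. Of 1528 repeat subfamilies measured in each library, 9 carried such a name. In the tables of single repeat copies, 1289 of 781935 loci did. All 9 names belong to the ERVK class of long terminal repeat (LTR) elements. No name in the files contains the word MusD, and MMETn-int, an internal sequence of the same kind whose name begins otherwise, was used only for comparison. Which of the internal names hold copies of the coding MusD and which of the non-coding ETn is not given by the files, so their values cannot be assigned to either.

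ETn elements encode no proteins of their own, and their copies move with the proteins made by the related coding element MusD. Their transcripts are best known from the early embryo, and ETn insertions are a recurrent source of spontaneous mouse mutations. An intact copy has an internal part, here named with the ending -int, between 2 LTRs that hold the promoter and the polyadenylation signal. A solitary LTR is what remains when the internal part has been lost by recombination.

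All samples were testes of C57BL/6 Mael-/- mice aged 3 months. Mael encodes a germ cell protein needed to silence retrotransposons through the piRNA pathway, and none of the 12 libraries described here came from animals with a functional Mael. The study asked which RNAs accompany ORF1p, the RNA-binding protein encoded by the LINE-1 (L1) retrotransposon. TOTAL was the clarified testis extract with 10 mM EDTA, which takes ribosomes apart. INPUT was the pool of fractions 5 to 8 of that extract after a sucrose gradient, IP was RNA precipitated from INPUT with an antibody to ORF1p, and BO was RNA that stayed on beads without antibody. Each of the 4 groups had 3 libraries, described as biological replicates, and whether same-numbered libraries came from 1 extract was not stated.

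The 12 libraries held 1384904 to 7282171 reads on repeat subfamilies, and the 9 names took 2537 to 8745 of them. Mael itself had a group mean between 0 and 0.65. The tables' gene rows gave a summed level of 18144 for 5 spermatocyte markers in TOTAL against 116 for 5 spermatid markers. In IP the spermatocyte sum was 114338, against 19003 in INPUT, with all 5 markers higher. The sum of 5 Leydig cell markers was 15260 against 42334 and that of 4 Sertoli cell markers 7187 against 20098, with every marker of both lists lower, and 3 of 4 spermatogonia markers were lower. L1Md_A, a young L1 subfamily, was higher in IP than in BO by a log2 fold change of 2.32 ± 0.20 (SE, limma, adjusted p = 5.61e-06). BO replicate 3 stood apart, since a single ribosomal RNA name took 52.1% of its reads and the members took 0.0906%, against 0.206% and 0.211% in the other BO libraries. The results with BO were therefore also computed without it.

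Of the 3 internal names, ETnERV3-int was the most abundant of all 9 in every library, and it was the member lowest in the immunoprecipitate against its input. The values below are read counts per subfamily that were scaled by the authors so that the upper quartile of all subfamilies was nearly equal in every library. In TOTAL, ETnERV3-int had normalised counts of 2926, 2462 and 1998. In INPUT they were 3828, 3061 and 3078, in BO 2066, 2331 and 1862, and in IP 1371, 1375 and 1230.0. The IP libraries lay closest together and below every library of the other groups.

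The mean of ETnERV3-int was 1325 ± 83 in IP and 3323 ± 438 in INPUT (SD, n = 3 each). This was a log2 fold change of -1.32 ± 0.14 (SE, limma, adjusted p = 4.59e-05). It was the only member called lower in IP than in INPUT, where a call required a log2 fold change beyond 1 and an adjusted p under 0.05. Over all 1180 subfamilies tested, 2.88% were called lower in that comparison. With libraries scaled to their total counts, ETnERV3-int was at -0.77 and not called, 1.25 below the median of all subfamilies, which moved to 0.48. Against TOTAL the log2 fold change was -0.88 ± 0.14 (limma, adjusted p = 0.00083), and against BO it was -0.65 ± 0.14 (limma, adjusted p = 0.00302). Both were below the fold required for a call. Scaled to library totals, the difference from BO was -0.15 (limma, adjusted p = 0.799), 0.52 below the median of all subfamilies, and without replicate 2 of every group it was -0.60 (limma, adjusted p = 0.0813). Without BO replicate 3 the difference from BO was -0.73 (limma, adjusted p = 0.00391). Under the same scaling the difference from TOTAL changed sign to 0.67, with the median of all subfamilies at 1.49, so that ETnERV3-int was still 0.81 below that median. The marker sums given above moved in the comparison of IP with INPUT as well, and their part in the difference was not tested. For a level in TOTAL, fewer cells of a type and less RNA per cell cannot be told apart in bulk RNA.

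ETnERV-int, another internal name, had a different profile. Its normalised counts were 774, 729 and 928 in TOTAL and 1083, 1247 and 1136 in INPUT. They were 697, 592 and 560 in BO, and 875, 734 and 682 in IP. INPUT was the group with the highest values, with no overlap with any other group, whereas IP overlapped with TOTAL and with BO. Scaled to library totals, the difference of IP from INPUT was -0.06 (limma, adjusted p = 0.904), 0.54 below the median of all subfamilies. As deposited, IP was lower than INPUT by a log2 fold change of -0.60 ± 0.12 (SE, limma, adjusted p = 0.00343) and BO was lower than INPUT by -0.91 ± 0.12 (limma, adjusted p = 0.000285). Against BO, IP was at 0.31 ± 0.12, which did not pass the test (limma, adjusted p = 0.0723). It passed at a fold still short of a call with edgeR (0.44, adjusted p = 0.0348) and with limma after median ratio scaling (0.43, adjusted p = 0.0365). It did not pass without BO replicate 3 (0.24, limma, adjusted p = 0.206) or without IP replicate 1 (0.205, limma, adjusted p = 0.264). Leaving out BO replicate 1 (0.40, limma, adjusted p = 0.0378) or IP replicate 3 (0.385, limma, adjusted p = 0.0464), it passed.

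ETnERV2-int, the remaining internal name, varied least between INPUT and IP as scaled by the authors. It had 940, 772 and 731 normalised counts in TOTAL, 872, 757 and 705 in INPUT, 1045, 1003 and 858 in BO, and 690, 745 and 801 in IP. The IP libraries lay within the range of INPUT and TOTAL except for the lowest, and below all 3 BO libraries. The log2 fold change from BO to IP was -0.38 ± 0.12 (SE, limma, adjusted p = 0.0271). Scaled to library totals it was 0.12, which was still 0.24 below the median of all subfamilies. With edgeR it was -0.25 and did not pass (adjusted p = 0.108), nor did it with median ratio scaling (limma, adjusted p = 0.103). The difference of IP from INPUT was -0.06, with a 95% interval from -0.32 to 0.20, so a change of more than 1 in log2 in either direction was outside the interval. Under scaling to library totals this difference was 0.49, which was 0.009 above the median of all subfamilies.

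Among the 6 LTR names, ERVB7_2B-LTR_MM stood lowest in IP. Its normalised counts were 113, 105 and 123 in TOTAL, 85.5, 105 and 126 in INPUT, 124, 122 and 117 in BO, and 57.4, 64.0 and 45.8 in IP. Every IP library was below every other library. These values rested on 39 to 50 reads per IP library. The IP mean of 55.7 ± 9.2 differed from the BO mean of 121 ± 3.6 by a log2 fold change of -1.12 ± 0.17 (SE, limma, adjusted p = 0.000307) and from TOTAL by -1.03 ± 0.17 (limma, adjusted p = 0.00109). Scaled to library totals, the difference from BO was -0.63 and not called (limma, adjusted p = 0.251), 0.99 below the median of all subfamilies.

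ERVB7_2B-LTR_MM was the only member called lower in each of these comparisons, where 3.81% of all subfamilies were called lower than in BO and 3.47% lower than in TOTAL. Against INPUT it was at -0.91 ± 0.17 (SE, limma, adjusted p = 0.00192), short of the required fold, and at -0.37 under scaling to library totals (limma, adjusted p = 0.461). The calls were close to the threshold. Without IP replicate 3 the log2 fold change was -0.99 against BO and -0.90 against TOTAL, and neither was called. With median ratio scaling it was -0.97 against TOTAL and, like the value against BO, not called. Without TOTAL replicate 3 the ERVB7_2B-LTR_MM call against TOTAL was also lost, and ETnERV3-int was called in its place at -1.02 (limma, adjusted p = 0.000386). Scaling to library totals turned the difference of ERVB7_2B-LTR_MM from TOTAL to 0.50, which was 0.98 below the median of all subfamilies under that scaling.

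RLTRETN_Mm, the LTR of ETn elements, was nearly level across the groups as scaled by the authors. Its counts were 195, 293 and 287 in TOTAL, 232, 300.4 and 258 in INPUT, 238, 232 and 265 in BO, and 293, 280.4 and 277 in IP. The IP libraries overlapped with TOTAL and INPUT and lay just above BO. IP minus INPUT was 0.11 on the log2 scale, with a 95% interval from -0.22 to 0.44. IP minus BO was 0.21, with an interval from -0.12 to 0.54 (limma, adjusted p = 0.313). Scaled to library totals, IP exceeded INPUT by 0.66, BO by 0.71 and TOTAL by 1.70. These values were 0.18, 0.345 and 0.215 above the median of all subfamilies.

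ERVB7_1-LTR_MM had an adjusted p under 0.05 in the upward direction in IP, against BO, as no other member did in the limma fit of all 12 libraries as scaled by the authors and without a replicate block. It had 238, 295 and 340.4 normalised counts in TOTAL, 239.6, 322 and 336 in INPUT, 188, 178 and 199 in BO, and 259, 269 and 264 in IP. IP lay inside the range of TOTAL and INPUT and above every BO library. IP exceeded BO by a log2 fold change of 0.49 ± 0.15 (SE, limma, adjusted p = 0.0228), which did not reach the fold for a call. Without any 1 of the IP libraries, or without BO replicate 1 or 2, the limma adjusted p was 0.051 or more. The log2 fold change stayed at 0.45 to 0.50 in these settings. BO was lower than INPUT by -0.65 ± 0.15 (limma, adjusted p = 0.00591). Scaled to library totals, IP exceeded BO by 0.98 (limma, adjusted p = 0.0309), 0.62 above the median of all subfamilies. The contrast of IP with INPUT was -0.16 ± 0.15 (limma, adjusted p = 0.456).

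ERVB7_2-LTR_MM had 167, 212 and 221 normalised counts in TOTAL, 178, 238 and 210.1 in INPUT, 110.3, 152 and 154 in BO, and 157, 120.3 and 134 in IP. BO and IP overlapped, and both lay below TOTAL and INPUT. The log2 fold change was -0.60 ± 0.17 from INPUT to IP (SE, limma, adjusted p = 0.0218) and -0.59 ± 0.17 from INPUT to BO (limma, adjusted p = 0.0222). The difference between INPUT and IP did not pass with median ratio scaling (limma, adjusted p = 0.0532) or without replicate 2 of every group (-0.41, limma, adjusted p = 0.291), and it was -0.06 under scaling to library totals (limma, adjusted p = 0.9). IP and BO differed by -0.01, with a 95% interval from -0.39 to 0.37.

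The remaining names were the rarest. ERVB7_3-LTR_MM ranged from 30.5 to 70.4 normalised counts over the 12 libraries and ERVB7_4-LTR_MM from 6.2 to 24.7. The groups of both overlapped in every comparison of IP with another group. ERVB7_4-LTR_MM had only 5 to 16 reads in an IP library. Its 95% interval against INPUT ran from -1.29 to 1.01, so neither a fall nor a rise of 1 in log2 was outside the interval. Against BO it was at -0.59 (limma, adjusted p = 0.428), and it was called lower, at -1.51, without replicate 1 of every group.

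**Figure D1:**
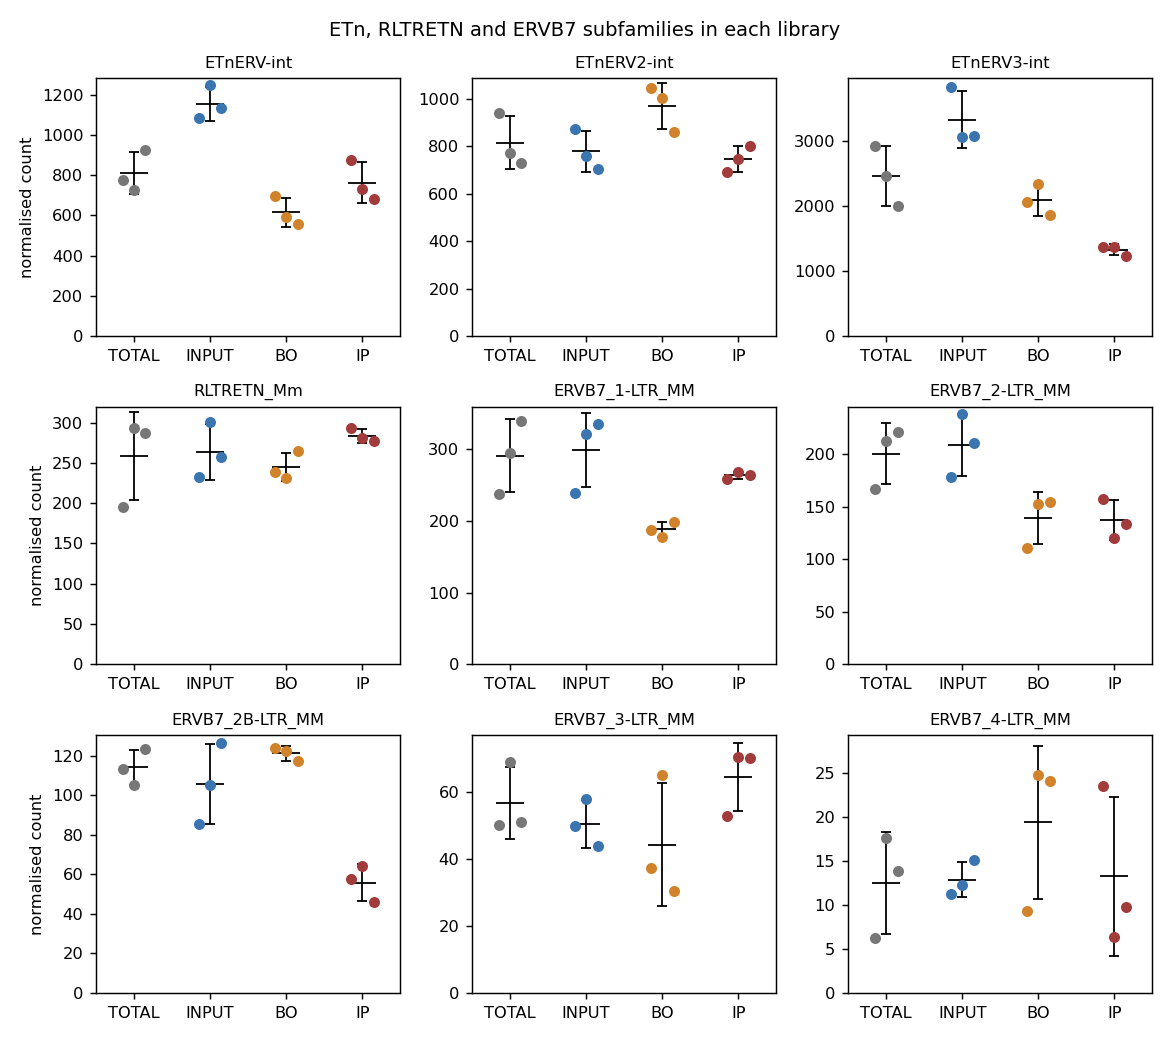
Normalised count (linear axis from 0) of each of the 9 subfamilies in TOTAL, INPUT, BO and IP; points are libraries, horizontal bars are means and error bars are SD (n = 3). ETnERV3-int and ERVB7_2B-LTR_MM are the panels in which every IP library lies below every other library.

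No member was called higher in IP in any of the 3 comparisons by limma or by edgeR on the recovered reads, with 1 exception. After scaling to library totals, limma called 7 of the 9 higher than in TOTAL. That scaling moved the median of all subfamilies to 1.49, itself past the fold limit of 1, so the 7 are not particular to the members. Relative to that median, the 9 ran from -0.985 for ERVB7_2B-LTR_MM to 0.22 for ERVB7_3-LTR_MM. As scaled by the authors, the share of all subfamilies past both limits in the upward direction was 5.08% against BO, 3.22% against INPUT and 2.88% against TOTAL. At an unadjusted p under 0.05, limma had 3 of the 9 members higher than in BO at any fold, and 0 higher than in INPUT or TOTAL. No share of all subfamilies was taken at an unadjusted p, here or below, so such counts only describe the members. Counting an adjusted p under 0.05 at any fold, 4 of the 9 members differed between IP and BO, of which 3 were lower, against 34.5% of all subfamilies. With edgeR 4 differed as well, but 2 were higher and 2 lower, since ETnERV-int entered and ETnERV2-int did not pass. Against INPUT 4 of 9 differed, all lower, beside 27.7% of all subfamilies, and against TOTAL 3 of 9, all lower, beside 22.7%. With edgeR 2 passed against TOTAL, since ERVB7_2-LTR_MM did not (adjusted p = 0.0732). The 3 comparisons share the IP libraries. The median log2 fold change over the 9 members was -0.01 against BO, -0.16 against INPUT and -0.12 against TOTAL, where the median over all 1180 subfamilies was -0.12, -0.06 and -0.05.

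Other LTR elements of the same class are given for scale. In the comparison of IP with BO, 6 of 25 IAP names were called higher and 1 lower, and of 13 ERVB2 to ERVB5 names 2 were higher and 3 lower. Against INPUT, 3 IAP names were higher and 3 lower, and of the ERVB2 to ERVB5 names 0 were higher and 1 lower. MMERVK10C-int, the internal part of a further ERVK element, was higher than in BO by 2.38. Among the internal names, MMETn-int went the other way from ETnERV3-int against the input. It had 1296, 1236 and 1102 normalised counts in INPUT, 2411, 2327 and 1988 in BO, and 1892, 1713 and 1463 in IP. The IP libraries of MMETn-int lay above INPUT and below BO. IP exceeded INPUT by 0.47 ± 0.13 (SE, limma, adjusted p = 0.0198), below the fold for a call, and was under BO by -0.41 ± 0.13 (limma, adjusted p = 0.0299), which did not pass with edgeR (adjusted p = 0.165).

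**Figure D2:**
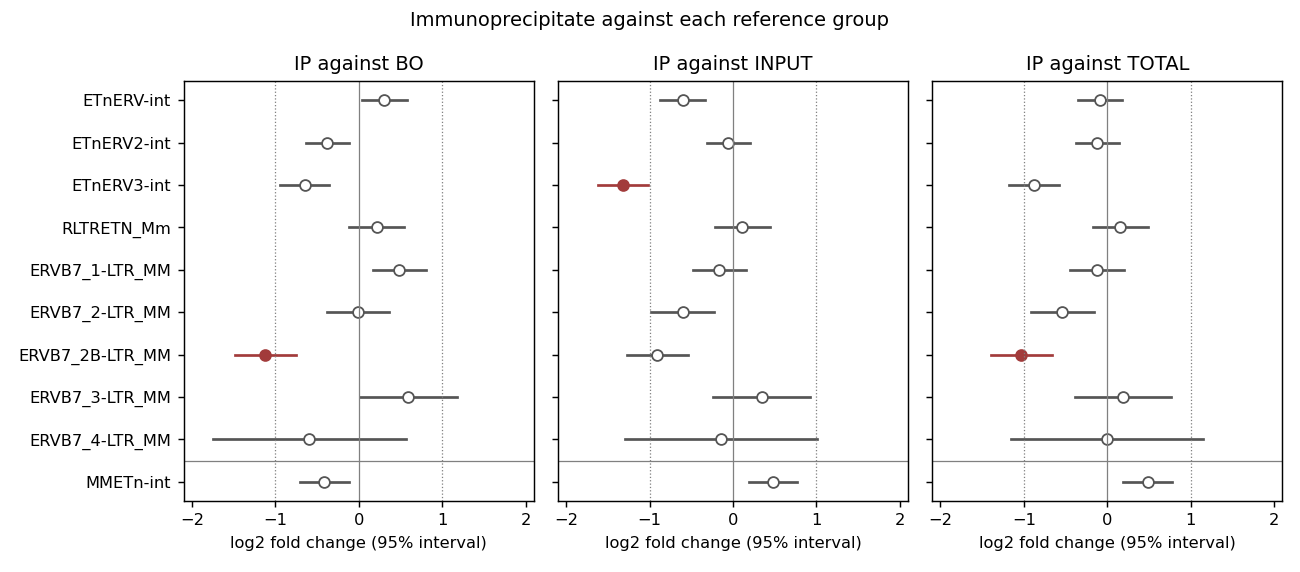
Log2 fold change of IP against BO, INPUT and TOTAL (points, limma) with 95% intervals (lines) for the 9 members and, under the grey line, MMETn-int; filled red points were called. Called points are ERVB7_2B-LTR_MM against BO (-1.12), ETnERV3-int against INPUT (-1.32), both not called under scaling to library totals (-0.63 and -0.77), and ERVB7_2B-LTR_MM against TOTAL (-1.03, which turns to 0.50 under scaling to library totals).

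The steps before the antibody were compared in the same way. Between INPUT and TOTAL, limma called 0 of the 9 members and 0.339% of all subfamilies. With limma, 2 members had an unadjusted p under 0.05, ETnERV-int at 0.52 ± 0.12 (SE, adjusted p = 0.06) and ETnERV3-int at 0.44 ± 0.14 (adjusted p = 0.124), both higher in INPUT, and edgeR called 0. An adjusted p under 0.05 was reached by 0 members in that fit, against 1.69% of all subfamilies. Scaled to library totals, ETnERV-int was at 1.52 and ETnERV3-int at 1.45, which was 0.49 and 0.42 above the median of all subfamilies. Member calls under that scaling are given below. Same-numbered TOTAL and INPUT libraries deviated together from their group means, though replicates 2 and 3 did so across numbers as well. With the replicate number as a block, ETnERV-int had an adjusted p of 0.0454 and ETnERV3-int of 0.0344 (limma).

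Between BO and INPUT, 0 members were called by limma and 0 by edgeR, against 5.42% of all subfamilies called by limma in either direction. Of the 9 members, 5 had an unadjusted p under 0.05 in limma, a count with no share of all subfamilies beside it. An adjusted p under 0.05 was found for 4 of them, all lower in BO, beside 28.9% of all subfamilies. These were ETnERV-int, ETnERV3-int at -0.67 ± 0.14 (SE, limma, adjusted p = 0.00336), ERVB7_1-LTR_MM and ERVB7_2-LTR_MM. With the replicate number as a block 5 passed, since ETnERV2-int did so in the higher direction at 0.32 (limma, adjusted p = 0.0474). Scaled to library totals, the adjusted p of these 4 was between 0.18 and 0.509 in limma. Their log2 fold changes stayed near the deposited values, at -0.86 for ETnERV-int, -0.62 for ETnERV3-int, -0.60 for ERVB7_1-LTR_MM and -0.54 for ERVB7_2-LTR_MM. Without BO replicate 1, ETnERV-int was called lower in BO (limma, adjusted p = 0.000606).

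Ratios taken inside a library do not depend on how libraries are scaled to each other. The log2 ratio of the summed 3 internal names to the summed 6 LTR names was 2.59, 2.00 and 1.82 in TOTAL, 2.86, 2.29 and 2.32 in INPUT, 2.43, 2.34 and 2.06 in BO, and 1.80, 1.82 and 1.76 in IP. Replicates in IP were the closest together and lay below all libraries of the other groups, by a narrow margin to the lowest TOTAL library. The mean in IP was 0.70 below INPUT, 0.48 below BO and 0.34 below TOTAL, where the difference of IP minus TOTAL was -0.12 without replicate 1. Each of these 3 differences had p = 0.1 in a two-sided exact permutation test, the smallest p that 3 against 3 libraries can give, and an adjusted p of 0.167 over the 5 comparisons made. INPUT and TOTAL overlapped (exact permutation p = 0.3, adjusted p = 0.375), although INPUT was the higher in all 3 same-numbered pairs, by 0.27, 0.29 and 0.50 (exact permutation of signs, p = 0.25, the smallest that 3 pairs allow). BO and INPUT overlapped as well (exact permutation p = 0.6, adjusted p = 0.6). The internal sum leaves out MMETn-int, whose mean count was higher in IP (1689) than in INPUT (1211) or TOTAL (1214), and lower than in BO (2242). No ratio was taken with MMETn-int in the sum, so the low ratio in IP describes the 3 member names only.

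The ratios of ETnERV3-int to single internal names were chosen after the values had been seen and are given as a description. The log2 ratio of ETnERV3-int to ETnERV2-int was 2.09 ± 0.07 in INPUT, 1.59 ± 0.12 in TOTAL, 1.11 ± 0.12 in BO and 0.83 ± 0.19 in IP (SD, n = 3 each). The order was INPUT, TOTAL, BO and IP, and only BO and IP overlapped. To ETnERV-int, the log2 ratio of ETnERV3-int was 0.80 ± 0.14 in IP and between 1.52 and 1.76 on average in the other groups, which overlapped with each other. To MMETn-int it was 1.45 ± 0.13 in INPUT and 1.02 ± 0.03 in TOTAL, but -0.10 ± 0.11 in BO and -0.34 ± 0.11 in IP. On beads with or without antibody, MMETn-int was thus at or above the level of ETnERV3-int in all libraries except BO replicate 2, where the ratio was 0.002. ETnERV3-int made up 53.5% ± 4.2 of the summed member counts in INPUT, 48.8% ± 5.8 in TOTAL, 47.0% ± 2.2 in BO and 36.3% ± 1.3 in IP.

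**Figure D3:**
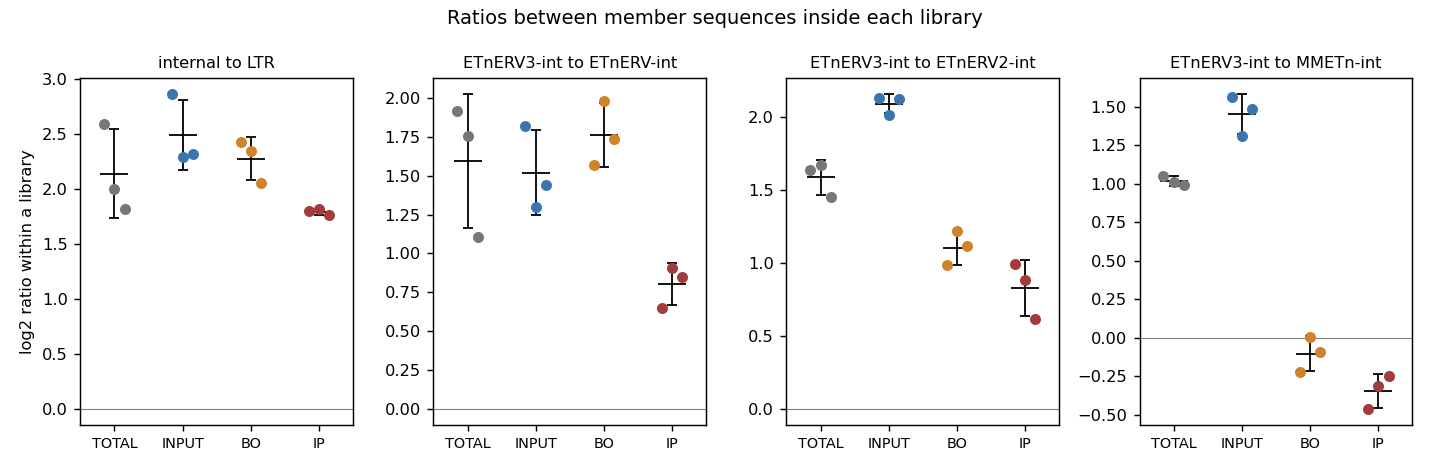
Log2 ratio within each library (points) with mean and SD (n = 3) of summed internal to summed LTR names, and of ETnERV3-int to ETnERV-int, ETnERV2-int and MMETn-int, in TOTAL, INPUT, BO and IP. IP has the lowest mean in each panel, with MMETn-int exceeding ETnERV3-int in IP (ratio of -0.34). The internal sum does not include MMETn-int.

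The single copies behind these sums were described from 3 tables that list each locus by the authors' mean per group, with no value per library. The loci are therefore given without an error or a test. The tables were normalised separately, so ratios of IP to the other group were taken within a table, after adding 1 to both means. ETnERV2-int had 310 of the 1289 loci, RLTRETN_Mm 251, ETnERV-int 200, ETnERV3-int 195, ERVB7_1-LTR_MM 109, ERVB7_2B-LTR_MM 75, ERVB7_2-LTR_MM 64, ERVB7_3-LTR_MM 61 and ERVB7_4-LTR_MM 24. Of all 1289 loci, 122 were listed at 0 in all groups, 162 had a mean of IP and INPUT of at least 1, and 21 of at least 10. These 21 comprised 15 ETnERV3-int, 3 ETnERV2-int, 2 ERVB7_2-LTR_MM and 1 ETnERV-int loci, whereas 0 of the 251 RLTRETN_Mm loci reached that level. The tables name loci by running numbers and give no positions, so neither coordinates nor sequences are given here.

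Most of the 21 loci were lower in IP. The minimum applied to the mean of both groups, so a locus could pass through INPUT alone. That was so for 7 of the 21, whose IP mean was under 10 and which were all lower by more than 1, whereas 0 passed through IP alone. The counts are therefore a description of loci chosen this way, as are those over all repeat loci, which were chosen alike. Against INPUT, the median log2 ratio was -1.78, and 14 of 21 loci were lower by more than 1 on the log2 scale, as were 31.2% of the 6645 repeat loci with such a mean, whose median was -0.25. 0 of the 21 were higher by more than 1, against 22.1% of all repeat loci. In the table with BO, 21 loci reached the mean, 10 of them with an IP mean under 10, which were all among the 15 lower by more than 1, beside 47.7% of 5557 repeat loci. The medians were -2.09 and -0.90. There, 1 locus was higher by more than 1, beside 17.2%, and with a BO mean under 10 it passed through IP alone. In the table with TOTAL, 6 of 20 loci had an IP mean under 10, and 1 had a TOTAL mean under 10 and passed through IP alone. Of the 20, 12 were lower by more than 1, 5 of the 6 with a low IP mean included, beside 24.3% of 6188 repeat loci. 0 were higher by more than 1, beside 24.1%, and the medians were -1.34 and 0.01. Of the 21 loci, 15 were lower in IP in all 3 tables and 2 were higher in all 3. The 3 tables share the IP libraries, and no such count was made over all repeat loci, so these counts only describe the 21. Loci of MMERVK10C had medians of 0.82 against INPUT and 1.18 against TOTAL, and against BO 86 of 135 were higher by more than 1. ERVB2 to ERVB5 loci had medians of -2.41 against BO, -1.06 against INPUT and -0.41 against TOTAL. Against BO, 43 of 52 such loci were lower by more than 1. IAP loci had medians of -0.84 against BO, -1.04 against INPUT and -0.415 against TOTAL. Against INPUT, 58 of 110 IAP loci were lower by more than 1. Low locus ratios in IP were thus not confined to the members.

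**Figure D4:**
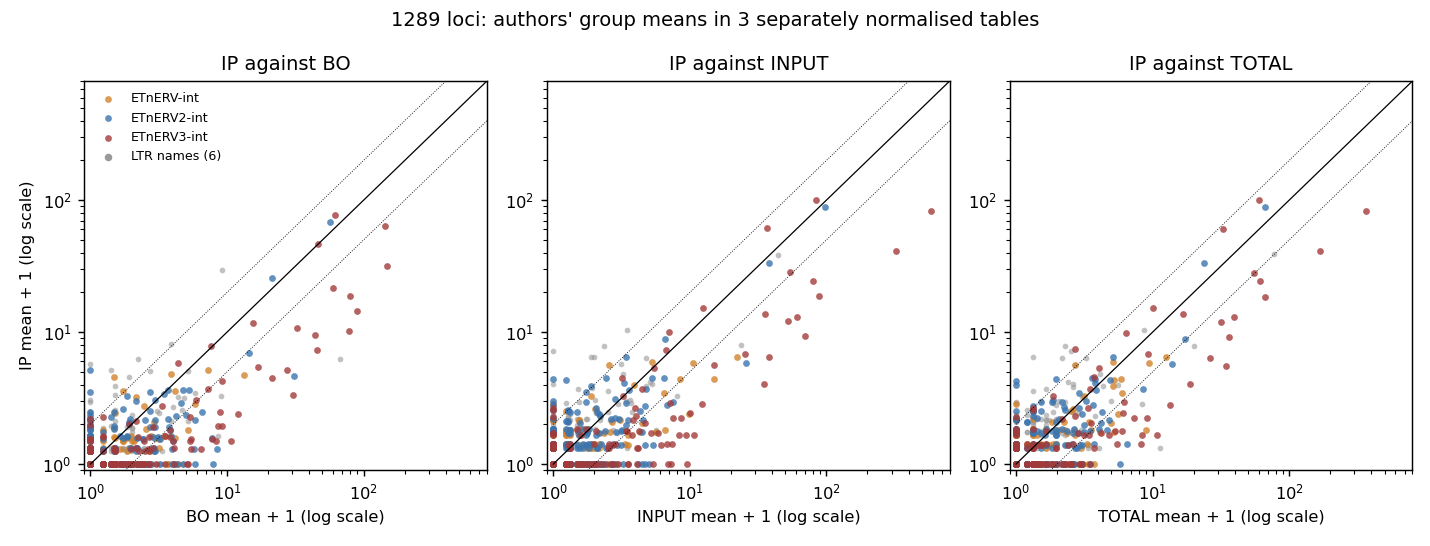
Authors' mean per locus plus 1, IP (y) against BO, INPUT and TOTAL (x), on log axes, for all 1289 loci; the solid line marks equality and dotted lines a log2 ratio of 1 in either direction. Most of the highest ETnERV3-int loci (red) lie under the lower dotted line, with a few on or above the solid line.

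A pair of ETnERV3-int copies carried much of the signal. ETnERV3-int_188 had a mean of 584 in INPUT, 363 in TOTAL and 143 in BO. Its IP mean was 81.7 in the table with INPUT and 62.4 in that with BO. It made up 32.4% of all ETnERV3-int signal in INPUT but 16.4% in IP. ETnERV3-int_43 had 323 in INPUT, 167 in TOTAL and 148 in BO, with an IP mean of 40.1 in the table with INPUT and 30.6 in that with BO. The log2 ratio of IP to INPUT was -2.82 for the former and -2.98 for the latter. Leaving both out, the summed ETnERV3-int loci still had a log2 ratio of -1.25 against INPUT, compared with -1.86 with them, and of -1.54 against BO and -0.79 against TOTAL.

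Not all ETnERV3-int copies were low in IP. ETnERV3-int_524 had a mean of 99.4 in IP against 82.9 in INPUT and 59.1 in TOTAL, and in the table with BO 75.8 against 60.6. ETnERV3-int_111 had 60.3 in IP against 35.8 in INPUT and 31.8 in TOTAL, and in the table with BO 45.9 against 45.4. Of the 21, these were the 2 loci with a ratio above 0 in all 3 tables, and together they made up 32.1% of the ETnERV3-int signal in IP and 6.6% in INPUT. By contrast, ETnERV3-int_226 had 87.8 in INPUT and 17.8 in IP, ETnERV3-int_214 had 79.1 and 23.3, and ETnERV3-int_187 had 69.0 and 8.32. ETnERV3-int_207 was at 53.5 in INPUT and 27.3 in IP. Over the 15 ETnERV3-int loci the log2 ratio to INPUT ran from -3.11 to 0.74, and 11 were lower by more than 1.

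Among these 21 loci, 12 lay in 5 runs of consecutive numbers, all of ETnERV3-int. Consecutive names may be parts of 1 element or neighbours, which the tables do not show, so they may not be independent. The run from 186 to 188 was lower in IP than in INPUT at each of its 3 loci, and so were both loci from 43 to 44 and from 225 to 226. The runs from 213 to 215 and from 524 to 525 were mixed. In the first, ETnERV3-int_213 had 11.5 in INPUT and 14.2 in IP while the other loci were lower in IP, and in the second, ETnERV3-int_525 had 24.4 in INPUT and 5.85 in IP.

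ETnERV2-int_593 and ETnERV2-int_591 followed another pattern. The summed ETnERV2-int loci were lower in IP, at a log2 ratio of -0.72 against BO, -0.40 against INPUT and -0.13 against TOTAL. ETnERV2-int_593, the third highest of all member loci, had 96.5 in INPUT and 88.5 in IP, and 65.6 in TOTAL. ETnERV2-int_591 had 36.9 in INPUT, 32.4 in IP and 22.9 in TOTAL. Both were close to INPUT in IP and above TOTAL and BO, with log2 ratios to BO of 0.26 each. ETnERV2-int_1637 was lower, with 24.9 in INPUT against 4.79 in IP, and in the table with BO 30.2 against 3.64. ETnERV-int_891, the only ETnERV-int locus with such a mean, had 21.0 in INPUT and 5.43 in IP.

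Of the LTR loci, the most abundant were ERVB7_2-LTR_MM_30 and ERVB7_2-LTR_MM_114, whose order on the bare beads was opposite to that in the other groups. ERVB7_2-LTR_MM_30 had a mean of 77.1 in TOTAL, 43.4 in INPUT and 37.7 in IP, but 8.23 in BO, where its IP mean in the same table was 28.8. It was the locus higher than BO by more than 1, at 1.69, and it reached the minimum mean through IP alone. ERVB7_2-LTR_MM_114 was the reverse against BO, with 66.5 in BO against 5.26 in IP. In the other tables it had 22.7 in INPUT, 19.1 in TOTAL and 6.93 in IP. It supplied 70.8% of the ERVB7_2-LTR_MM signal in BO, whereas ERVB7_2-LTR_MM_30 supplied 54.9% in IP.

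**Figure D5:**
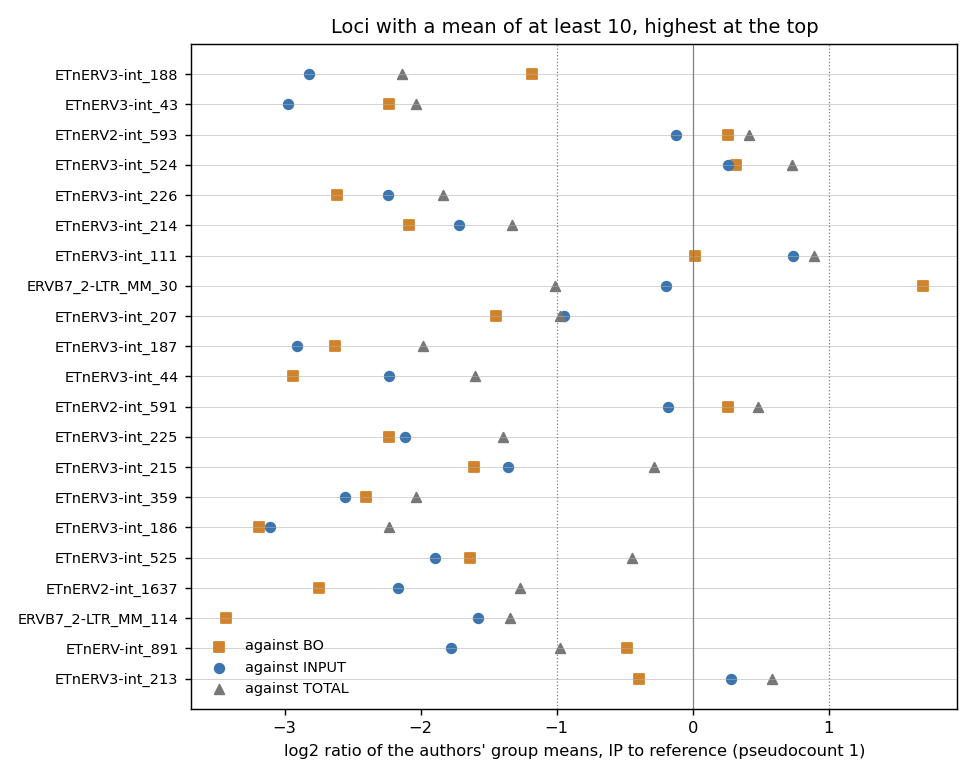
Log2 ratio of the authors' means (pseudocount 1), IP against BO (squares), INPUT (circles) and TOTAL (triangles), for the 21 loci with a mean of at least 10, ordered by that mean. Only ETnERV3-int_524 and ETnERV3-int_111 lie to the right of 0 for all 3 symbols.

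The subfamily and locus tables did not weight the members alike. In INPUT, ETnERV-int stood at 34.8% of ETnERV3-int in the subfamily table but at 8.2% in the summed loci, and ERVB7_1-LTR_MM at 9.0% against 1.3%. For ETnERV2-int both figures were close, at 23.4% and 18.8%. Reads with ambiguous positions were reassigned before the subfamily table was made, while the locus tables list multimapping reads in a row of their own. ETnERV3-int was lower in IP than in INPUT in both kinds of table, at -1.32 and -1.86, whereas ERVB7_1-LTR_MM was at -0.16 in the subfamily table and 0.99 in its summed loci. Against BO, ETnERV-int was at 0.31 as a subfamily but at -0.58 in its summed loci. The cause of these differences was not tested.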

How the data were processed

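RNA of TOTAL, INPUT, BO and IP was sequenced from rRNA-depleted, stranded libraries. Per the authors' methods and notes, reads were mapped to mm10 with STAR 2.6.0c, ambiguous reads were reassigned with Telescope, and counts were summed per repeat name and normalised with EBSeq. The deposited subfamily values are thus an upper-quartile normalised signal. Division by the value of 1 read returned whole reads (tolerance 0.1) for 100% of values. The locus tables hold the authors' means per group as a normalised signal from DESeq2 1.24.0. Their fold change and p-value columns were not used. In these tables, 4 tally rows (unmapped, multimapping, no feature, ambiguous; 21.6% of the IP sum, 29.6% in INPUT, 37.1% in TOTAL and 36.9% in BO) were left out.

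Subfamilies with a mean of at least 10 (1180, all 9 members included) were tested on log2(value + 1) with limma 3.58.1 (trend, 1 fit of 12 libraries, Benjamini-Hochberg adjustment over 1180), and fold changes are on that scale. The fit was tested on simulated data, in which 100% of 200 subfamilies changed by a log2 of 2 in IP against BO were called. A change of 2 lies well past the fold limit, so this does not show how changes near that limit are called. edgeR 4.0.16 (quasi-likelihood) on recovered reads was an alternative. Other alternatives were pseudocounts of 0.1 and 10, other minimum means, other scalings, the compared groups alone, a replicate block, and leaving out replicates or libraries. Whether replicate numbers pair the libraries was checked by the correlation of deviations from group means. For same-numbered libraries this correlation was 0.32 to 0.63 between TOTAL and INPUT and 0.06 to 0.56 between INPUT and BO. Between TOTAL and BO it was -0.13 to 0.24. With IP it was -0.14 to 0.12 for TOTAL, -0.13 to 0.05 for INPUT and -0.01 to 0.10 for BO. Across numbers it was also 0.33 between TOTAL 2 and INPUT 3 and 0.24 between TOTAL 3 and INPUT 2, near the same-numbered 0.34 and 0.32. Exact permutation tests used SciPy. Named were all members, the 10 loci with the highest mean of IP and INPUT, and the 3 highest per subfamily with a mean of at least 10. Further loci were named after their values were seen, as were the ratios of ETnERV3-int to single names. Members and lists were chosen with earlier results of these data known. With 3 libraries a group, p-values measure only the spread between these libraries.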

Additional observations from a re-analysis of the deposited data

How the results depend on the processing

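For IP against BO, limma called 0 members with scaling to library totals or with median ratio scaling. It also called 0 with a mean of at least 100, which leaves ERVB7_2B-LTR_MM untested. When replicates or libraries were left out, 0 to 2 were called (0 without IP replicate 3, 2 without replicate 1). The second was ERVB7_4-LTR_MM, whose value was -0.59 in the main fit and ran from -1.51 to 0.01 with libraries left out. IP against INPUT gave 0 under scaling to library totals and 1 to 2 with libraries left out, since ERVB7_2B-LTR_MM joined ETnERV3-int without replicate 1, replicate 2, INPUT replicate 1 or IP replicate 2. IP against TOTAL gave 0 with a pseudocount of 10, a mean of at least 100 or median ratio scaling, 0 to 1 with libraries left out (0 without replicate 3 or IP replicate 3), and 7, all higher, under scaling to library totals, where the median of all subfamilies moved to 1.49. INPUT against TOTAL gave 5 under that scaling, with the median at 1.03. Both medians lay past the fold limit of 1, so the 7 and the 5 do not set the members apart from all subfamilies. BO against INPUT gave 0 to 1 with libraries left out (1 without replicate 1 or BO replicate 1). edgeR gave the same number of calls in all 5 comparisons.

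Scaling to library totals turned IP minus BO to 0.48 for ERVB7_2-LTR_MM and 0.12 for ETnERV2-int, IP minus INPUT to 0.38 for ERVB7_1-LTR_MM, 0.36 for ERVB7_4-LTR_MM and 0.49 for ETnERV2-int, and IP minus TOTAL to 0.50 for ERVB7_2B-LTR_MM and 0.67 for ETnERV3-int. All 7 members below 0 against TOTAL turned positive, among them ERVB7_2-LTR_MM, ERVB7_1-LTR_MM at 1.42 and ETnERV-int at 1.46. There the median of all subfamilies moved to 1.49. Relative to the median, ERVB7_1-LTR_MM was at -0.07 and ETnERV-int at -0.02, compared with -0.08 and -0.04 as deposited. ERVB7_3-LTR_MM in IP against BO reached an adjusted p of 0.0473 with the replicate block. Values near 0 also changed sign elsewhere. ERVB7_2-LTR_MM against BO was 0.11 with median ratio scaling, 0.14 with edgeR and -0.27 to 0.15 with libraries left out. Against INPUT, ERVB7_4-LTR_MM was 0.041 with edgeR and -0.71 to 0.24 with libraries left out, and ETnERV2-int was 0.022 with median ratio scaling and -0.18 to 0.081 with libraries left out. Of all 45 member values, 15 changed sign under scaling to library totals. That scaling moved the median of all subfamilies as well, to 0.36, 0.48 and 1.49 for IP against BO, INPUT and TOTAL. The median was 1.03 for INPUT against TOTAL and 0.08 for BO against INPUT, so the count does not describe the members alone. With the replicate block, the paired fit called 1 member in each comparison of IP and 0 in the other comparisons, as without it. With the block, members with an adjusted p under 0.05 numbered 5 in IP against BO, 4 against INPUT and 3 against TOTAL. They numbered 2 in INPUT against TOTAL and 5 in BO against INPUT. Fitting the compared groups alone with the block, an alternative chosen after seeing the data, gave 5, 3, 2, 2 and 5 in that order. That fit also called 1, 1, 1, 0 and 0. Shares of all subfamilies were not taken in the blocked fits, so these counts only describe the members.

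With a mean of at least 1, the median over member loci was -0.78 against INPUT, -1.08 against BO and -0.64 against TOTAL. Over all repeat loci it was -0.20, -0.565 and -0.16. With a mean of at least 50, the members were at -1.98, -1.18 and -1.01, and all repeat loci at -0.006, -1.10 and 0.24. These member medians rested on only 6, 5 and 5 loci, against 648, 613 and 639 repeat loci. At that minimum the member value against BO was near that of all repeat loci. The difference in internal to LTR ratio between IP and TOTAL was -0.49 to -0.12 with a replicate left out. Locus means carry no replicate spread, and ERVB7_4-LTR_MM had only 5 to 16 reads in an IP library.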
